A study of Mus musculus with 4 samples.

Results

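The limb bud is a core of mesenchyme wrapped in a sheet of ectoderm, and 39 genes of that epithelial sheet were followed in the autopod, the distal piece that forms hand or foot. They were chosen by name, as keratins, junction proteins, epithelial transcription factors, splicing regulators, surface proteases and trafficking genes, among 18193 genes with a probe set assigned to a single symbol. All 39 had such a probe set, and the brightest by mean log2 signal over the arrays stands for each gene. RNA of C57BL/6 mouse embryos at E11.25, in mid-gestation, was measured on 4 Affymetrix arrays. On 2 of them was RNA of Hox13dKO embryos (Hoxa13-/-; HoxDdel/del), which lack Hoxa13 and carry on both chromosomes a deletion of Hoxd11, Hoxd12 and Hoxd13. The other 2 held RNA of wild-type embryos. Fore- and hindlimb pieces cut to the Hoxd13 expression domain both entered, and the sources used here do not give the number of embryos per sample. The genotype as given names no transgene or Cre, and the deletions are carried by all cells of the embryo, ectoderm included.

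Epithelial cells are held together by cadherins, desmosomes and tight junctions, and keratins run as paired filaments between the desmosomes. Grainyhead-like and OVOL transcription factors keep this state, ESRP proteins give transcripts their epithelial splice forms, and ZEB and SNAIL repressors of the mesenchyme silence it through E-boxes. In the limb the ectoderm thickens at its rim to the apical ridge, which signals to the mesenchyme below and keeps the limb growing. Hoxa13 and Hoxd13 are known mainly for their action in the mesenchyme.

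The E-box was the sequence feature that the members' promoters held most often beyond the level of other promoters. RefSeq promoter windows of GRCm38.p6, running from 250 bases before to 50 bases after an annotated start, were found for 23 of the 39 genes, with 26 windows among them. The 16 without an entry were Krt15, Krt17, Krt19, Cdh1, Cdh3, Perp, Grhl2, Esrp1, Esrp2, Dsg2, Dsc2, Pkp1, Pkp3, St14, Prss8 and Ovol1. The letters CACCTG, or CAGGTG on the other strand, stood in 18 of 26 windows (69.2%), against 20.2% of all 32851 windows and 19.7% of those of protein-coding genes. Median GC content was 60.7% in the members' windows and 56.3% in those of protein-coding genes, so base composition differed as well. The windows of 4 genes that mark simple and basal epithelium are shown because both partners of a keratin pair and Epcam hold the motif, which is set in capitals. They are Epcam (chr17:87635729-87636028, plus strand), Krt5 (chr15:101712856-101713155, minus strand), Krt8 (chr15:102004293-102004592, minus strand) and Krt18 (chr15:102027966-102028265, plus strand).
Epcam: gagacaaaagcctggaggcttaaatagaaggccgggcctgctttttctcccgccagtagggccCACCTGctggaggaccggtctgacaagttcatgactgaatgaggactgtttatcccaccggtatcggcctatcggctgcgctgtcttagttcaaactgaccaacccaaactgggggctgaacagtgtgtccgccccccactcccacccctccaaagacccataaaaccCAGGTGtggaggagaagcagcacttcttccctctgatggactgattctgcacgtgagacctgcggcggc
Krt5: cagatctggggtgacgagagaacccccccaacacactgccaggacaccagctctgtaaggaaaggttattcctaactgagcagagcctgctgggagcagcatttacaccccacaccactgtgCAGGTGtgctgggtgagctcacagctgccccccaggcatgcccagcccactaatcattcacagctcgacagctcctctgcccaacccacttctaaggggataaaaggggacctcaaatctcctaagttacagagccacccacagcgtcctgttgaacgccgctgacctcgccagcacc
Krt8: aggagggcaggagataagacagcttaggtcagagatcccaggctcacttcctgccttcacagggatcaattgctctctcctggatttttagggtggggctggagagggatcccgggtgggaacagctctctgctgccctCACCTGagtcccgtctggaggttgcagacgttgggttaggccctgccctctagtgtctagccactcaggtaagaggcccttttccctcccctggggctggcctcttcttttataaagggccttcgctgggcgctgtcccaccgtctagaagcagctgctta
Krt18: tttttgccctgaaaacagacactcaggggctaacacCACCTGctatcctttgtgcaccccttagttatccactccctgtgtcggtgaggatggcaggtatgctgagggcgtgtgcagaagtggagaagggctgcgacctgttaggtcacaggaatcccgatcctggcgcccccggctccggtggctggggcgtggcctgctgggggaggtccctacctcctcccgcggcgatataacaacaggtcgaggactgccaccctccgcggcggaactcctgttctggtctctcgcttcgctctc

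In Epcam the motif begins 187 and 19 bases before the annotated start, in Krt5 128, in Krt8 111 and in Krt18 214 bases before it. The same search over both strands covered 9 other motifs, and the E-box is shown because it was the one furthest above its share elsewhere in percentage points. The Grainyhead-like letters AACCNGTT were in 2 member windows, those of Rab25 and Sfn (7.69%, against 2.09% of all windows). The looser AACNNGTT, which includes the former, was in the same 2 (against 4.2%), and the palindrome AACCGGTT, included in both, in 0 (against 0.146%). TATAAA was in 1, that of Krt8 (3.85%, against 13.6%), and CAATAAA, a sequence that HOX13 proteins prefer, in 0 (against 4.6%). GGGCGG was in 57.7% of member windows against 35.7% of all, CCAAT in 26.9% against 37.4%, TGANTCA in 7.69% against 7.81%, and the p63 core motif in 3.85% against 1.93%. These are matches of letters in short windows and are given as a description.

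Epithelial genes gave signals above the floor in all 4 samples. For 38 of the 39 genes every array lay above the floor of 14.1 signal units, the 20th percentile of all values, to which lower signals were raised. That floor is not a limit of detection, and the share of all genes above it is not given here. Epcam, an adhesion molecule of nearly all embryonic epithelia, read 1335 and 2142 in the mutant samples against 1622 and 1452 in the controls. Cdh1, or E-cadherin, the core of the adherens junction, read 1143 and 1250 against 1323 and 695.4. Krt14, the basal type I keratin, read 1063 and 1103 against 1054 and 1185. For these 3 defining genes the arrays of the groups overlapped. Grhl2, a master regulator of epithelial junction genes, read 390.9 and 455.6 against 358.1 and 383.5, and Esrp1, the main epithelial splicing regulator, 654.8 and 843.8 against 678.3 and 584.7. Grhl2 was a little higher in both Hox13dKO samples, while Esrp1 overlapped. Signals of different probe sets depend on their probes, so a level is compared here only within a gene. In such bulk tissue, fewer ectoderm cells and less RNA per ectoderm cell cannot be told apart.

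**Figure D1:**
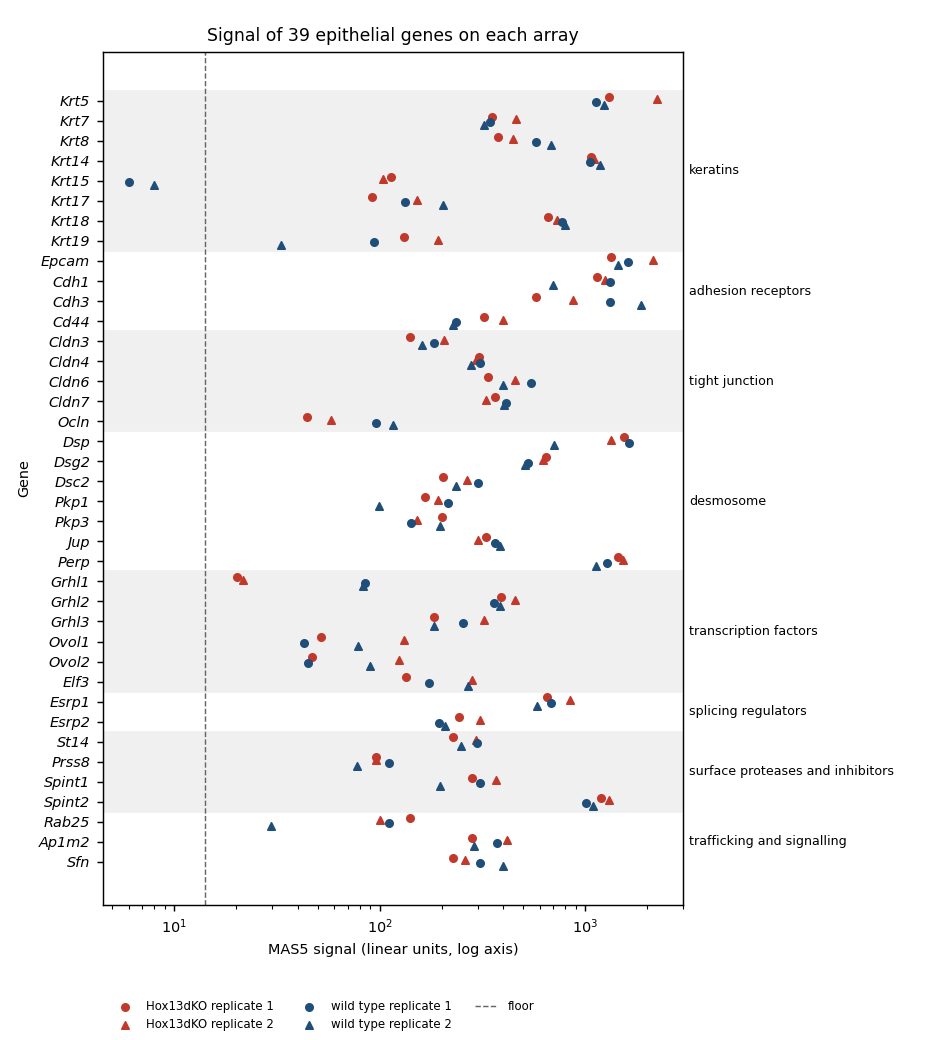
Each row is 1 of the 39 epithelial genes, grouped by role, and each point the MAS5 signal of its brightest probe set on 1 array (log axis); red is Hox13dKO, blue wild type, circles replicate 1 and triangles replicate 2, and the dashed line is the floor of 14.1. Most genes have their 4 points close together, while Krt15 has both wild-type points below the floor, and Cdh3, Ocln and Grhl1 have both red points to the left of both blue ones.

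None of the 38 epithelial genes tested passed an adjusted p of 0.05 in limma, in either direction. The test ran over all 27022 probe sets bright enough, and 40 of 13072 genes passed in it by their brightest probe set (0.306%). At an unadjusted p under 0.05 there were 5 epithelial genes, where 7.25% of all genes stood. Of these, 2 were higher, Krt19 and Cd44 (4.26% of all genes), and 3 lower, Cdh3, Krt8 and Grhl1 (2.99%). Differences above 0 were found for 23 of the 38 and for 45.8% of all genes. The median log2 difference, Hox13dKO minus wild type, was 0.10 over the epithelial genes and -0.03 over all genes tested. The arrays of the groups did not overlap for 17 of the 38, beside 37.2% of all genes. Of the 17, 9 were higher (17.1% of all genes) and 8 lower (20.1%). Beyond 2-fold were 5 of the 38, against 5.21% of all genes. Grhl1, in this count and among the 5 genes above, is the one member with a group mean under the filter, so its place in both counts follows in part from how it entered the test. The 95% interval lay inside 2-fold in both directions for 20 of the 38, and for 65.7% of all genes. The median SE was 0.28 for the epithelial genes and 0.22 for all, so their intervals were wider.

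**Figure D2:**
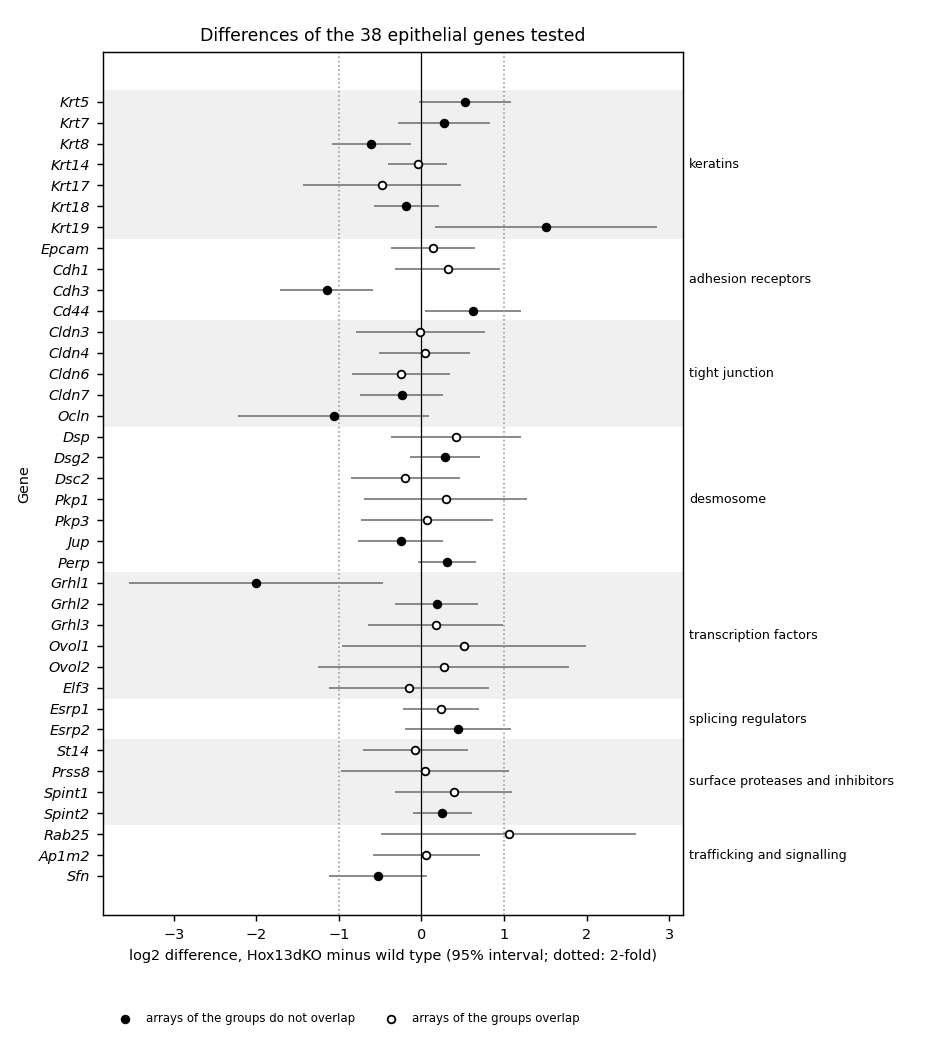
The log2 difference of each of the 38 genes tested (Hox13dKO minus wild type, points) is drawn with its 95% interval (bars) by role; filled points are genes whose arrays do not overlap between groups, and dotted lines mark 2-fold. Most points lie within 0.5 of 0, and the intervals of Cdh3, Krt8 and Grhl1 on the lower side and of Krt19 and Cd44 on the higher side do not include 0, although none of them passed after adjustment.

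The 2 Hox13dKO samples differed from each other more than the groups did. In 31 of the 38 genes the signal was higher in Hox13dKO replicate 2 than in replicate 1, with a median difference of 0.32 on the log2 scale, against 0.01 over all genes. Between the wild-type replicates 16 of the 38 were higher in replicate 2, with a median of -0.05 against 0.02. Of the 38 genes, 17 had their highest signal in Hox13dKO replicate 2, and 14 each had their lowest in Hox13dKO replicate 1 and in wild type replicate 2. Leaving out Hox13dKO replicate 1 brought the median group difference to 0.31, and leaving out Hox13dKO replicate 2 to -0.12. It became 0.13 when wild type replicate 1 was left out, and -0.05 when wild type replicate 2 was.

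**Figure D3:**
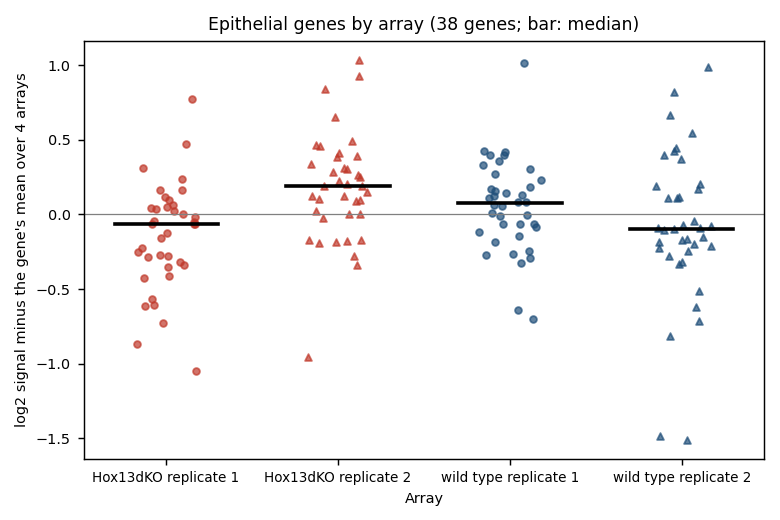
For each array the 38 epithelial genes are drawn as log2 signal minus the gene's mean over the 4 arrays, with the median as a bar (red Hox13dKO, blue wild type). The medians are -0.06 and 0.19 in Hox13dKO against 0.07 and -0.10 in wild type, so replicates of a group lie on opposite sides of 0.

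Keratins, the filament proteins, did not share a direction. Of 8 listed, 7 were tested and 0 passed, with differences above 0 for 3 and below 0 for 4 (median -0.05). Krt5, the basal type II keratin and partner of Krt14, read 1308 and 2235 in Hox13dKO against 1134 and 1241 in wild type. Both mutant samples were above both controls, replicate 2 by much the most (log2 difference 0.53 ± 0.24 SE, adjusted p = 0.829). Its partner Krt14 differed by -0.05 ± 0.16 (adjusted p = 0.982). Krt8, the simple-epithelium keratin of type II, read 376.2 and 446.5 against 574.8 and 678.6, lower in both mutant samples (-0.61 ± 0.21, adjusted p = 0.611). Other Krt8 probe sets differed by -0.18 and 0.44, with overlapping arrays. All 3 Krt8 probe sets, the main one included, are of types treated here as able to cross-hybridise. Krt18, which pairs with Krt8, differed by -0.18 ± 0.17, also with both mutant samples lower (adjusted p = 0.939). Krt7, another simple-epithelium keratin, differed by 0.27 ± 0.24. Krt17, a keratin of periderm and skin appendages, read 91.58 and 151.9 against 133.2 and 202.7, with overlap (-0.48 ± 0.42).

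The type I keratins Krt15 and Krt19, neighbours in the keratin cluster on chromosome 11, both read higher in the mutant. Krt15, a keratin of basal cells, read 113.5 and 103.5 in Hox13dKO against 6.05 and 7.93 in wild type. Both wild-type arrays lay below the floor, so the signal was at least 7.68-fold higher in Hox13dKO. Its mean log2 signal fell just short of the filter (5.29 against 5.31), and it was therefore left out of the test. With no filter its adjusted p was 0.322, at rank 345 by p of 45037 probe sets. Krt19, a small keratin of simple and progenitor epithelia, read 130.9 and 193.2 against 94.11 and 33.14, with wild type replicate 2 lowest (1.51 ± 0.58, adjusted p = 0.709). Its difference was 0.76 with wild type replicate 2 left out and 2.26 with wild type replicate 1 left out. Krt14 and Krt17, further along the same cluster, did not share this direction.

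Among adhesion receptors 0 of 4 passed, and Cdh3 had the lowest p of all 38 epithelial genes. Cdh3, or P-cadherin, a cadherin of basal epithelium and hair placodes whose loss in humans can cause hair and limb defects, read 578 and 872.7 in Hox13dKO against 1326 and 1864 in wild type. Both mutant samples were below both controls (log2 difference -1.15 ± 0.24 SE, 95% interval -1.71 to -0.58, unadjusted p = 0.00155, adjusted p = 0.201). Its dimmer second probe set read 32.34 and 57.62 against 143.7 and 142.3, in the same direction (-1.73 ± 0.51). Without wild type replicate 1 the Cdh3 difference was -1.39. That array had the lowest ratio of 5' to 3' actin signal, 0.473 against 0.728 to 0.771 on the others, and the part of this in the value was not tested. Without the other arrays in turn the Cdh3 difference ranged from -1.44 to -0.85. Cdh1, the protein-coding gene next to Cdh3 on chromosome 8, differed by 0.32 ± 0.28 (adjusted p = 0.939), and by -0.15 without wild type replicate 2. The difference between the 2 cadherins was not tested. Cd44, a hyaluronan receptor present in the apical ridge and also on other cells, read 321.7 and 397.8 against 234.8 and 228 (0.63 ± 0.25, adjusted p = 0.740), and a second probe set differed by 0.70. Epcam differed by 0.14 ± 0.22, and a dimmer probe set by -0.31.

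Tight junction genes, which seal the space between cells, had 0 of 5 past the threshold and a median difference of -0.24. Occludin, Ocln, a membrane protein of the seal, read 44.08 and 57.76 in Hox13dKO against 96 and 115.5 in wild type, with both mutant samples lower (-1.06 ± 0.50, adjusted p = 0.845). These are dim signals, and another dim Ocln probe set differed by 0.81 with overlapping arrays. The claudins, the strand-forming proteins, differed little. Cldn3 and Cldn4, neighbours on chromosome 5, stood at -0.01 ± 0.34 and 0.04 ± 0.24, Cldn6 at -0.25 ± 0.26 and Cldn7 at -0.24 ± 0.22. Only for Cldn7 of these 4 did the groups not overlap. A dim Cldn3 probe set differed by 1.92, and 2 others by 0.01 and 0.22.

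Desmosome genes had 0 of 7 past, all within 0.5 of 0, with a median of 0.28. Perp, a tetraspan protein of desmosomes under control of p63, read 1451 and 1526 in Hox13dKO against 1277 and 1128 in wild type (0.31 ± 0.15, adjusted p = 0.859). Dsp, or desmoplakin, which ties keratin to the plaque, read 1548 and 1341 against 1643 and 707, with wild type replicate 2 far below the others (0.42 ± 0.34). Without wild type replicate 1 it stood at 1.03, and without wild type replicate 2 at -0.19. Its other probe sets differed by 0.32 and 0.60. Of the desmosomal cadherins, Dsg2 was higher in both mutant samples (0.28 ± 0.18) and Dsc2 overlapped (-0.19 ± 0.29). A dim Dsg2 probe set read lower in both mutant samples, by -0.57, and the rest of those tested differed by 0.11 to 0.32. Among plaque proteins, Jup, or plakoglobin, was lower in both mutant samples (-0.25 ± 0.23), while Pkp1 and Pkp3, the plakophilins, overlapped (0.29 ± 0.43 and 0.07 ± 0.35).

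Of 6 epithelial transcription factor genes 0 passed. Grhl1, a Grainyhead-like factor of desmosomal genes, read 20.26 and 21.66 in Hox13dKO against 84.77 and 83.32 in wild type. Replicates lay very close in both groups, but the mutant signals were only a little above the floor, where the fitted spread is wide, and Grhl1 passed the filter only through the wild-type arrays (-2.00 ± 0.67, 95% interval -3.54 to -0.47, adjusted p = 0.586). Its relatives Grhl2 and Grhl3 differed by 0.19 ± 0.22 and 0.17 ± 0.35. A dim second Grhl2 probe set read lower in Hox13dKO, by -1.16. Ovol1, a zinc finger repressor of mesenchymal genes, read 51.88 and 131.5 against 42.6 and 78.72 (0.51 ± 0.64), and Ovol2, of the same family, differed by 0.27 ± 0.66. Both overlapped, with replicate 2 the higher array in each group. Elf3, an ETS factor of differentiating epithelium, stood at -0.15 ± 0.42.

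The splicing regulators Esrp1 and Esrp2 differed by 0.24 ± 0.20 and 0.44 ± 0.28, and 0 of 2 passed. Esrp2 read 242.3 and 306.4 in Hox13dKO against 194.2 and 207.7 in wild type, and a dim second probe set differed by -0.47. Of the membrane proteases and their inhibitors 0 of 4 passed. St14, or matriptase, and Prss8, or prostasin, which activate each other at the epithelial surface, stood at -0.07 ± 0.28 and 0.05 ± 0.44. Their inhibitor genes Spint1 and Spint2 stood at 0.39 ± 0.31 and 0.25 ± 0.15. Spint2 read 1195 and 1308 against 1008 and 1090, both mutant samples higher, but another of its probe sets differed by -0.19. Of the remaining genes 0 of 3 passed. Rab25, a GTPase of apical recycling, read 140.9 and 100.7 against 110.9 and 29.51, and its difference of 1.06 ± 0.67 fell to 0.10 without wild type replicate 2. Sfn, or stratifin, a p53-responsive adaptor of keratinocytes, read 227.9 and 259.2 against 308.6 and 396.4, lower in both mutant samples (-0.53 ± 0.26, adjusted p = 0.861). Ap1m2, the epithelial subunit of a sorting adaptor, differed by 0.06 ± 0.28.

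Probe sets of the same gene often disagreed in sign. Several were tested for 14 of the genes, and all pointed the same way for 5 of them, Krt14, Cdh3, Cd44, Dsp and Dsc2. For the other 9 the sign was mixed, namely Krt8, Epcam, Cldn3, Ocln, Dsg2, Pkp3, Grhl2, Esrp2 and Spint2. Of the 5 member genes at an unadjusted p under 0.05, Cdh3 and Cd44 each had a second probe set of the same sign, Krt8 had mixed signs, and Krt19 and Grhl1 had 1 probe set each.

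**Figure D4:**
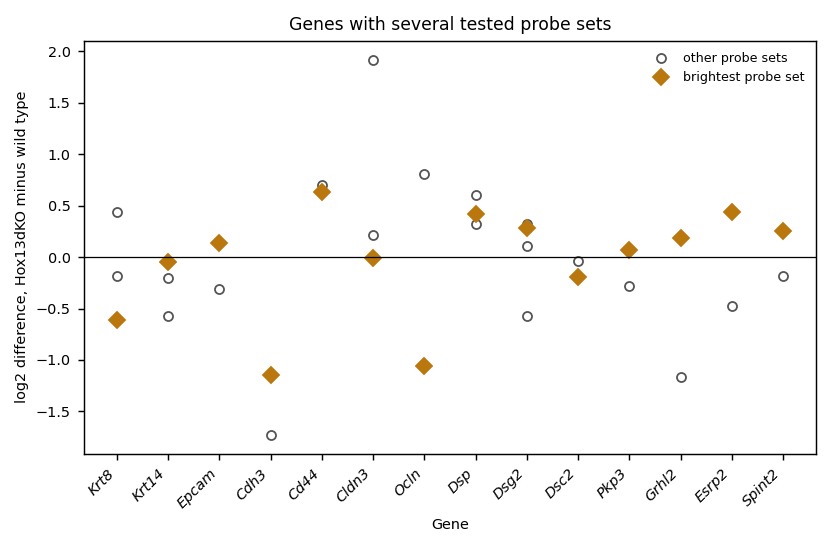
The log2 difference (Hox13dKO minus wild type) of the brightest probe set (diamonds) and of the other tested probe sets (open circles) is drawn for the 14 genes with several. Both Cdh3 probe sets lie below -1 and both Cd44 ones above 0.5, while Krt8, Ocln, Grhl2 and Cldn3 have points on both sides of 0.

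Further genes of the ectoderm were compared as well. Of 34 tested genes of surface ectoderm outside the 39, 0 passed, 22 had differences above 0 (45.8% of all genes), and the median was 0.23. Those with the lowest p were Prom2, Col17a1 and Wnt7a. Prom2, a membrane protrusion protein, read 94.7 and 100.8 in Hox13dKO against 53.98 and 7.17, with 1 control below the floor, and entered the test only through the mutant samples. Col17a1, a collagen of hemidesmosomes, differed by 0.72 ± 0.35, and Wnt7a, the dorsal ectoderm signal, by -0.62 ± 0.31. Trp63, which encodes the p63 factor that maintains stratified epithelium, differed by 0.25 ± 0.18. Of 15 apical ridge genes 0 passed, 8 were above 0, and the median was 0.20. Fgf4, Bmp4 and Fgf8 had the lowest p and read higher in both mutant samples. Their differences were 1.79 ± 0.43, 0.73 ± 0.18 and 0.83 ± 0.22 (adjusted p from 0.275 to 0.336). At an unadjusted p under 0.05 were 6 of these 15, where 7.25% of all genes stood. Of the 6, 4 were higher (4.26% of all genes), namely Fgf4, Bmp4, Fgf8 and Dlx5 (0.54 ± 0.23). The 2 lower (2.99%) were the ridge factors Sp6 (-0.66 ± 0.22) and Dlx2 (-0.72 ± 0.26). The groups did not overlap for 7 that read higher and 4 that read lower, beside 17.1% and 20.1% of all genes. Some list members, such as Bmp4, are also expressed in mesenchyme.

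Mesenchyme genes, including the repressors that act on E-boxes, had 0 of 16 past and a median of 0.07. Zeb1 stood at 0.08 ± 0.14, Zeb2 at 0.23 ± 0.45 and Snai2 at 0.10 ± 0.14. Snai1 read 746 and 857.2 in Hox13dKO against 430.1 and 581.5 in wild type, higher in both mutant samples without passing (0.68 ± 0.21, adjusted p = 0.540). Cdh2, the mesenchymal cadherin, and Prrx1, a limb mesenchyme factor, differed by 0.52 ± 0.14 and 0.48 ± 0.16 (adjusted p = 0.386 and 0.589). Lhx2, also in this list, read lower in both mutant samples (-0.47 ± 0.17, adjusted p = 0.674). At an unadjusted p under 0.05 were 3 higher and 1 lower of the 16, beside 4.26% and 2.99% of all genes. The groups did not overlap for 5 that read higher and 3 that read lower (17.1% and 20.1% of all genes). The 17 tested epithelial genes with an E-box in a promoter window had a median difference of 0.04 (from -1.06 to 1.06), and the 6 without had 0.11 (from -2.00 to 0.63). Without Krt14, whose window lies inside the span of the gene and may not hold its main start, the latter 5 had a median of 0.27, and the motif stood in 18 of 25 windows (72.0%), a count made after seeing the data.

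Markers of other cells varied beside these genes, and their part in the epithelial values was not tested. Summed signals of 10 muscle progenitor genes were 2031 and 4218 in Hox13dKO against 953 and 839, with 1 of 9 tested past, Actc1, and Hox13dKO replicate 2 the highest. Such a sum weighs bright probe sets most, and Actc1 alone read 880.3 and 2252 against 116.3 and 92.73. For 11 endothelial genes the sums were 4745 and 5733 against 3982 and 4707 (0 of 11 past), and for 10 macrophage genes 2041 and 2166 against 1559 and 1791 (0 of 9 past). Erythroid sums were 92067 and 106683 against 75520 and 98449 (0 of 6 past), and sums of 8 nerve and neural crest genes 999 and 1429 against 1407 and 1496 (0 of 5 past). Within this last list Stmn2 and Tubb3 were lower in both mutant samples (-1.08 ± 0.26 and -1.29 ± 0.37), and Erbb3 was higher (0.42 ± 0.22). In limma 5 of 9 muscle and 3 of 11 endothelial genes had an unadjusted p under 0.05, all higher in Hox13dKO. The same held for 2 of 9 macrophage and 2 of 6 erythroid genes. Of all genes, 4.26% were higher at that p. Myog and C1qa, in these counts, had a wild-type mean under the filter and entered the test only through the mutant samples. The nerve list had 2 lower (2.99% of all genes) and 0 higher. The 16 mesenchyme genes summed to 82908 and 71466 against 73236 and 72875. No marker in these lists was at the floor on all 4 arrays.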

How the data were processed

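Total RNA of the distal limb bud was labelled and hybridised to 1 Affymetrix array per sample. The values are the linear intensity (MAS5 signal) per probe set that the authors deposited; the submitters' processing notes name MAS5, with no version in the sources used here. This method removes background, uses mismatch probes and scales each array; the 2% trimmed mean was 500.003 on each. Detection calls and scanner data were not analysed here, so no background level exists per probe set. The number of arrays, 2 per group, limits precision.

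Platform annotation gave 1 symbol to 34945 of 45101 probe sets, after leaving out 64 controls. Signals below 14.1 were set to that value before taking log2, with no other scaling. Probe sets with a geometric mean of at least 39.6 were tested (27022) in limma 3.58.1, R 4.3.3, with lmFit and trended eBayes (2 residual and 6.05 prior degrees of freedom), two-sided, and p was adjusted over all of them by Benjamini-Hochberg. An adjusted p is from that test unless its sentence names another setting, such as no filter or the replicate block. SDs, SEs and 95% intervals rest on 2 samples per group, which the titles call biological replicates. Members and gene lists were chosen with earlier results of these data known. Per-array values are given for the 6 highest and 6 lowest differences, the 6 brightest genes and the defining genes Epcam, Cdh1, Krt5, Krt14, Grhl2 and Esrp1. After seeing them, they were added for Krt15, Snai1 and Actc1. Of the surface ectoderm, ridge, mesenchyme and nerve lists, the 3 genes with lowest p are named. Named after their values were seen were Trp63, Sp6, Dlx2, Dlx5, Lhx2, Zeb1, Zeb2, Snai2, Myog and C1qa. Names, gene neighbours and promoter windows came from RefSeq, GRCm38.p6. On simulated arrays with 200 of 27022 probe sets changed, 11.1% of 2-fold and 49.1% of 4-fold changes were recovered, with 3.8 false calls per run. Figures were drawn with matplotlib 3.10.9.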

Additional observations from a re-analysis of the deposited data

Results flagged for a closer look

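Krt15 lay outside the test because its mean signal was under the filter, yet its probe set read 108.5 on average in Hox13dKO (113.5 and 103.5) with both wild-type arrays below the floor of 14.1. It was singled out as a signal in a probe set left out of the comparison, with the controls at the floor. The rule looked at member probe sets in this direction only, so a signal lost in Hox13dKO could not be flagged. How common the pattern is among all probe sets left out is not given here. Another Krt15 probe set was not found among those with 1 symbol, so the value rests on a single probe set.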

How the results depend on the processing

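The count of 0 epithelial genes past the threshold in limma held under 10 of 11 settings that kept all arrays, with 2 to 6 genes at an unadjusted p under 0.05 over every setting but the replicate block and the omission of wild type replicate 1. With the replicate block it was 1, Cdh3 (adjusted p = 0.00203, with 8 genes at an unadjusted p under 0.05). Counts here cover only genes of the main test, so Krt15 was left out also with no filter (unadjusted p = 0.00248 in that limma fit). Leaving out each array gave 0 to 2, the 2 being Cdh3 and Dsp. The labels do not say whether same-numbered samples belong together. With 2 pairs, same-numbered samples deviated together with r = 0.198 over probe sets. The median signal was 66.1 in Hox13dKO replicate 1 and 65.8 in wild type replicate 1. In replicate 2 it was 81.2 and 85.7. Whether same-numbered samples shared a step was not tested. The epithelial median ranged from -0.12 to 0.31 when single arrays were left out. Of the 38 genes, 21 kept their sign under every setting in which they were tested, 13 of them under all 16. Median centring changed the sign of 1, Cldn3, and averaging a gene's probe sets that of 5. Leaving out wild type replicate 2 changed the sign of 9, and leaving out Hox13dKO replicate 2 that of 5. Leaving out Hox13dKO replicate 1 or wild type replicate 1 changed that of 4 each. Without probe sets of types that can cross-hybridise 32 genes remained, and Krt7, Krt8, Epcam, Cldn3, Jup and Spint2 dropped out.

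Over all probe sets, 56 passed. The count was 213 after median centring, 0 with no filter (3159 at an unadjusted p under 0.05), 1 without the intensity trend, 418 with the replicate block, 95 with 1 probe set per gene (fewer tests), and 11 to 525 when single arrays were left out. The causes of the other changes were not tested. In fits without an array the spread of a lone sample is taken from the other group. Dim probe sets, such as those of Grhl1, Ocln and Krt15, have no measured background.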
